A study of Bos taurus with 4 samples.

Results

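The genes described here are 47 genes of fatty acid metabolism and of lipid droplets, chosen by symbol and sorted into fatty acid synthesis (12 genes), fatty acid oxidation (13), storage in droplets and release from them (12), uptake and activation (8) and a pair of nuclear receptors that respond to fatty acids, PPARA and PPARD. A probe was found for 46 of them and not for HADHA, which was not analysed here, and 42 had a probe bright enough to be tested, out of 11963 genes with a tested probe in the series. The symbols were taken from the platform annotation, and each gene was represented by its brightest tested probe that was measured on all arrays.

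Bovine blastocysts were produced by in vitro fertilisation of oocytes from slaughterhouse ovaries. At this stage the embryo encloses a cavity, and its trophectoderm surrounds the inner cell mass. One group of embryos was sired with semen taken from bulls at 16 months of age and the other with semen taken at 12 months. The study design names 4 bulls, each sampled at both ages. Each of 4 arrays held RNA of the 16-month embryos in one dye and RNA of the 12-month embryos in the other, with the 16-month RNA in Cy3 on arrays 1 and 2 and in Cy5 on arrays 3 and 4. The labels call the arrays biological replicates but tie no bull to an array, give no embryo number and do not say whether embryos were pooled. The labels give both groups the same maturation, fertilisation and culture and do not describe the dams. Age of the bull and time of semen collection cannot be told apart.

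Fatty acids are built in the cytosol. ATP citrate lyase makes acetyl-CoA, acetyl-CoA carboxylase turns it into malonyl-CoA, fatty acid synthase joins these units into a saturated chain, and elongases and desaturases then lengthen it and add double bonds. For use as fuel, a fatty acid is activated to its CoA ester, carried into mitochondria by the carnitine palmitoyltransferases and shortened in the cycle of beta-oxidation. Surplus fatty acids are esterified to triglyceride and kept in droplets coated by perilipins. Bovine oocytes and embryos are rich in such droplets, which serve as an energy reserve and are known to lower survival after freezing.

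No gene of the set passed the test for paternal age, and the ratios averaged over arrays were small. Ratios are given as log2 of 16 over 12 months, the opposite of the order in the study's title, so a positive value is higher with 16-month semen. In limma's test with a term for the dye, 0 of 42 members had an adjusted p below 0.05, and 0% of the 30986 probes tested did. The members' adjusted p ran from 0.969 to 1.00. Unadjusted p-values below 0.05 were found for 1 member that was higher with 16 months (AGPAT5) and for 2 that were lower (MID1IP1 and CIDEB), where 2.03% of all genes were higher and 2.25% lower at that level. Of the 42 members, 19 had a mean ratio above 0 and 23 below it, with a median of -0.02 against 0.00 over all genes. When the arrays were centred on their median in place of loess, the split was 25 above 0 and 17 below, and 55.7% of all genes were above 0. The median size of a member's ratio, without its sign, was 0.08, and the median SD over arrays was 0.29, against 0.10 and 0.27 over all genes. The 95% confidence interval of every member, not adjusted for the number of genes, lay between -1 and 1, which is a 2-fold difference in either direction. The p-values rest on the spread of these 4 arrays within each dye orientation, since the dye term takes out the difference between orientations. The SD over arrays still includes that difference. In such bulk RNA, fewer cells of a type and less RNA per cell cannot be told apart.

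The number of calls changed when array 4 was left out. Without it, 2 members passed limma's test, both lower with 16 months. These were MID1IP1 at -0.59 (adjusted p = 0.0479) and FADS1 at -0.70 (adjusted p = 0.0293), while 163 genes or 1.36% of all genes passed. In that fit the dye orientation with 16-month RNA in Cy5 was left with array 3 alone, which was assumed to vary like the others. Only arrays 1 and 2 gave a spread within an orientation. The SD of the tested ratios was 0.40 on array 3, against 0.31 and 0.30 on arrays 1 and 2. For FADS1, arrays 1 to 3 gave -0.48, 0.00 and -1.15. Array 4 itself gave -0.34 for MID1IP1 and 0.43 for FADS1, so that for FADS1 it lay on the other side of 0 from the value that passed. Without array 3, 44 probes and 0 members passed, with 0.209% of all genes, and without array 1 or array 2 no probe passed.

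A single sign on all 4 arrays was seen for 5 members. The mean was above 0 for AGPAT5, HADHB and ACADVL, and 5.53% of all genes were higher with 16 months on every array. It was below 0 for MID1IP1 and FADS2, and 4.64% of all genes were lower on every array. These members' shares, 3 and 2 of 42, lie near those of all genes, and nothing about the set is read from them.

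**Figure D1:**
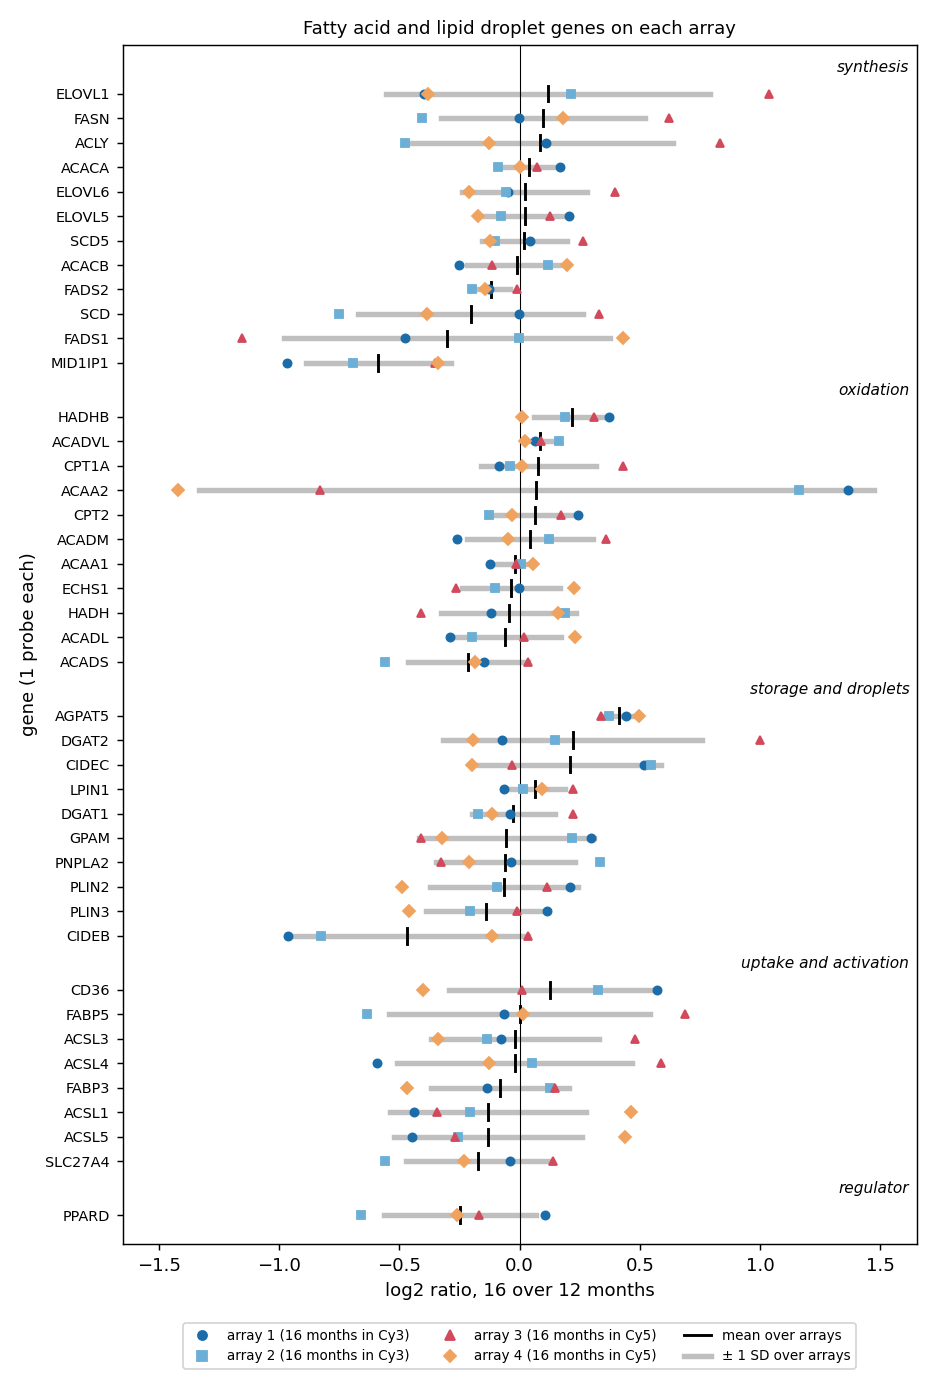
Log2 ratio of 16 over 12 months (x axis) of the 42 tested genes (y axis), by role and sorted by mean within a role. Symbols are the 4 arrays, black ticks the mean and grey bars ± 1 SD over arrays. The symbols of most genes lie on both sides of 0, AGPAT5 lies to the right and MID1IP1 to the left on every array, and ACAA2 splits by dye orientation between 1.37 and -1.42.

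Among the genes of synthesis, 7 of 12 had a mean ratio above 0 and 5 below, with a median of 0.02. None passed limma's test. The widest difference of the set belonged to MID1IP1, a protein that helps acetyl-CoA carboxylase to polymerise and so raises its activity. Its log2 intensity on arrays 1 to 4 was 8.33, 8.86, 9.47 and 9.57 with 16 months, against 9.30, 9.55, 9.82 and 9.91 with 12 months. The 16-month level was below the 12-month level on every array, while the levels of the 2 ages overlapped across arrays. The ratios were -0.97, -0.69, -0.35 and -0.34, with a mean of -0.59 ± 0.30 (SD, n = 4), which is 0.666 times the 12-month level (95% confidence interval -0.86 to -0.32, limma adjusted p = 0.969). The difference was larger on arrays 1 and 2 than on arrays 3 and 4, where the dyes were exchanged, and the dye effect of this probe was 0.24 (log2 of Cy5 over Cy3).

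The carboxylases and the enzymes before and after them had means between -0.01 and 0.10. ACACA, the cytosolic acetyl-CoA carboxylase, had ratios of 0.17, -0.09, 0.07 and 0.00 on arrays 1 to 4 and a mean of 0.04 ± 0.11. ACACB, the carboxylase at the mitochondrial surface, averaged -0.01 ± 0.21 and was above background on 2 arrays at each age. ACLY, the citrate lyase, averaged 0.09 ± 0.55, and its array values ran between -0.48 on array 2 and 0.83 on array 3. FASN, the fatty acid synthase, had the same 2 arrays at its ends, with -0.40 on array 2 and 0.62 on array 3, and a mean of 0.10 ± 0.42. For both genes the spread between arrays was several times the mean.

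Among the desaturases the means ran from -0.30 for FADS1 to 0.02 for SCD5. SCD, which places the double bond of oleate, averaged -0.20 ± 0.47 with 0.00, -0.75, 0.33 and -0.38 on arrays 1 to 4, and its relative SCD5 averaged 0.02 ± 0.18. FADS2, the delta-6 desaturase at the entry to long polyunsaturated fatty acids, had one of the lowest SDs of the set, with ratios of -0.13, -0.20, -0.01 and -0.14 and a mean of -0.12 ± 0.08 (95% confidence interval -0.38 to 0.14, limma adjusted p = 0.969). With mean in place of median pixel intensities its mean ratio was -0.21, a shift of more than 1 SD. FADS1, the delta-5 desaturase that acts later on the same route, had the largest SD of the synthesis genes. Its log2 intensity on arrays 1 to 4 was 12.05, 12.78, 11.96 and 12.50 with 16 months, against 12.52, 12.78, 13.11 and 12.07 with 12 months. The ratios were -0.48, 0.00, -1.15 and 0.43, so that arrays 3 and 4, which share a dye orientation, differed most. The mean was -0.30 ± 0.68 (limma adjusted p = 0.969), and the dimmer of its 2 probes averaged -0.06 ± 0.30.

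The elongases lengthen fatty acyl chains. ELOVL1, which acts on saturated very long chains, had ratios of -0.40, 0.21, 1.04 and -0.38 and a mean of 0.12 ± 0.67, with array 3 far above the others. ELOVL6, which extends palmitate to stearate, averaged 0.02 ± 0.26 at its brightest probe and -0.14 ± 0.08 and -0.05 ± 0.44 at its further probes. Of these, the middle probe was below 0 on all 4 arrays (-0.09, -0.07, -0.16 and -0.26). ELOVL5, an elongase of polyunsaturated chains, averaged 0.02 ± 0.18, -0.13 ± 0.28 and 0.16 ± 0.40 at its 3 probes, again on both sides of 0.

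In oxidation, 6 of 11 tested genes had a mean above 0 and 5 below, with a median of 0.04. None passed limma's test. HADHB, the thiolase subunit of the mitochondrial trifunctional protein, had a log2 intensity of 11.93, 12.30, 12.04 and 11.77 with 16 months on arrays 1 to 4, against 11.55, 12.11, 11.73 and 11.76 with 12 months. The 16-month level was higher on each array, by 0.37, 0.19, 0.31 and 0.01, with a mean of 0.22 ± 0.16 (95% confidence interval -0.06 to 0.50, limma adjusted p = 0.969), and array 4 was close to 0. HADHA, the other subunit of that protein, was not analysed here, so the pair could not be compared. ACADVL, the dehydrogenase of very long chains, was also above 0 on all 4 arrays at 0.06, 0.16, 0.09 and 0.02, with a mean of 0.08 ± 0.06. Its dimmer probe averaged 0.01 ± 0.10, with array 3 at -0.13.

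The other dehydrogenases of the cycle stood on both sides of 0. ACADS, for short chains, averaged -0.21 ± 0.25. ACADM, for medium chains, averaged 0.04 ± 0.26 at its brightest probe and -0.06 ± 0.30 at the other tested probe. ACADL, for long chains, averaged -0.06 ± 0.23. The enzymes behind them, the hydratase ECHS1 at -0.04 ± 0.21 and the hydroxyacyl-CoA dehydrogenase HADH at -0.04 ± 0.28, each had arrays on both sides of 0. The values of HADH were -0.12, 0.19, -0.41 and 0.16. The peroxisomal thiolase ACAA1 varied little, with -0.12, 0.01, -0.01 and 0.06 and a mean of -0.02 ± 0.08. Entry into mitochondria gave 0.08 ± 0.24 for CPT1A, the liver-type carnitine palmitoyltransferase that malonyl-CoA inhibits, and 0.06 ± 0.17 for CPT2, its partner on the inner membrane. The muscle form CPT1B was above background on 1 array at each age and was not tested.

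ACAA2, the mitochondrial thiolase, had the largest SD of all members, and its sign followed the dye. The log2 intensity of its brightest probe on arrays 1 to 4 was 11.00, 10.76, 9.37 and 9.04 with 16 months, against 9.64, 9.60, 10.20 and 10.46 with 12 months. On arrays 1 and 2 the 16-month level was the higher one, by 1.37 and 1.16, and on arrays 3 and 4 the ratios were -0.83 and -1.42. The mean over arrays was therefore 0.07 ± 1.40, and the fitted dye effect was -1.19 (log2 of Cy5 over Cy3). A further probe did the same, with 1.36, 1.31, -1.08 and -1.20 and a dye effect of -1.24. The remaining probe had -0.02, 0.05, -0.32 and 0.48 and a dye effect of 0.03. The probes' sequences were not examined. Over the set, the dye effect was larger than the age effect in 25 of 42 genes (59.5%), against 56.4% of all genes.

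**Figure D2:**
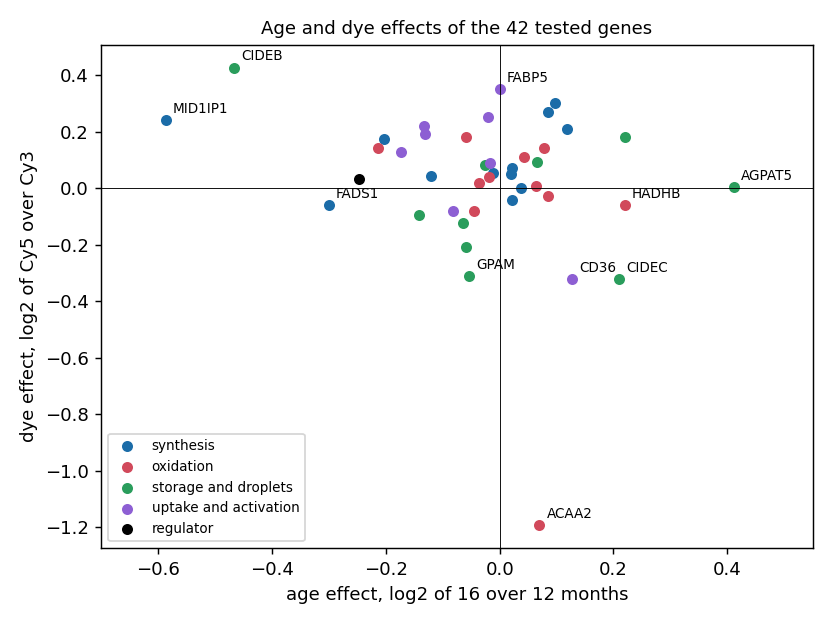
Fitted age effect (x axis, log2 of 16 over 12 months) and dye effect (y axis, log2 of Cy5 over Cy3) of the 42 tested genes, coloured by role. ACAA2 lies at a dye effect of -1.19, AGPAT5 and HADHB have age effects of 0.41 and 0.22 with dye effects near 0, and CIDEB and MID1IP1 combine negative age effects with positive dye effects.

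Storage and release gave 4 of 10 tested genes above 0 and 6 below, with a median of -0.04. None passed limma's test. AGPAT5, an acyltransferase that makes phosphatidic acid on the way to triglyceride and phospholipid, had the smallest SD of the set relative to its mean. Its log2 intensity on arrays 1 to 4 was 11.05, 11.56, 11.98 and 11.18 with 16 months, against 10.61, 11.19, 11.64 and 10.69 with 12 months. The levels of the 2 ages overlapped across arrays, but on each array the 16-month level was the higher one. The ratios were 0.44, 0.37, 0.34 and 0.49, with a mean of 0.41 ± 0.07 (SD, n = 4), a 1.33-fold higher level (95% confidence interval 0.15 to 0.68, limma adjusted p = 0.969). The mean was nearly the same in the 2 dye orientations, 0.41 on arrays 1 and 2 and 0.42 on arrays 3 and 4.

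Further probes of AGPAT5 had the same sign on average. The next brightest had 0.26, 0.20, 0.44 and 0.52, with a mean of 0.35 ± 0.15. A dim probe had -0.51, -0.01, 0.65 and 0.98 and followed the dye more than the age, with a dye effect of 0.54. A probe measured on 3 arrays had 0.40, 0.11 and 0.58. The other members of glycerolipid assembly had means nearer to 0, the largest of them 0.22 for DGAT2. GPAM, which takes the initial step of glycerolipid synthesis in mitochondria, averaged -0.05 ± 0.36, 0.01 ± 0.36 and -0.14 ± 0.27 at its 3 probes. LPIN1, the phosphatase after AGPAT5 on the route to triglyceride, had -0.06, 0.01, 0.22 and 0.09 and a mean of 0.07 ± 0.12. DGAT1, which completes triglyceride, averaged -0.03 ± 0.17. DGAT2, which does so next to droplets, averaged 0.22 ± 0.54, and this rested on array 3 among -0.07, 0.15, 1.00 and -0.19, while its dimmer probe averaged -0.04 ± 0.24.

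**Figure D3:**
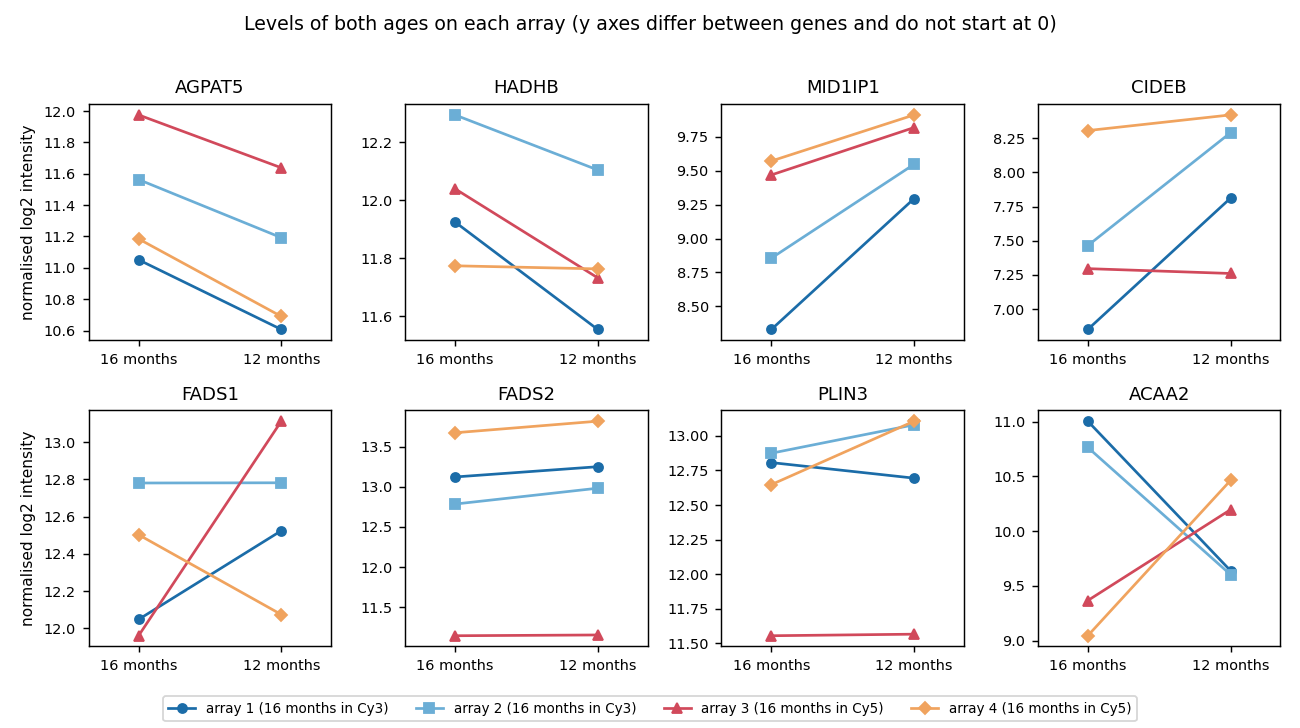
Normalised log2 intensity (y axis, scaled for each gene) with 16-month and 12-month semen (x axis) for 8 genes, with a line for each array. AGPAT5 is higher and MID1IP1 lower with 16 months on every array, FADS2 and PLIN3 lie lower on array 3 at both ages, FADS1 runs in opposite directions on arrays 3 and 4, and ACAA2 crosses over with the dye.

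The droplet coat proteins PLIN2 and PLIN3 averaged -0.06 ± 0.31 and -0.14 ± 0.25. The CIDE proteins, which promote droplet fusion and growth, showed larger ratios at probes close to background. For CIDEB, the log2 intensity on arrays 1 to 4 was 6.85, 7.46, 7.30 and 8.31 with 16 months, against 7.81, 8.29, 7.26 and 8.42 with 12 months. The ratios were -0.96, -0.83, 0.04 and -0.11, so the mean of -0.47 ± 0.50 (95% confidence interval -0.73 to -0.20, limma adjusted p = 0.969) came mainly from arrays 1 and 2. Its second probe had 0.58, 0.21, -0.41 and -0.26, and a mean of 0.03 ± 0.45. The sign was opposite to that of the brightest probe on arrays 1 to 3, and both were below 0 on array 4. CIDEC averaged 0.21 ± 0.38, with 0.52 and 0.55 on arrays 1 and 2 and -0.03 and -0.20 on arrays 3 and 4. The lipases gave few values. PNPLA2, which starts the breakdown of droplet triglyceride, averaged -0.06 ± 0.29. LIPE, the hormone-sensitive lipase, was not above background on any array at either age. MGLL, the monoglyceride lipase, was above background on 0 of 4 arrays with 16 months and on 2 of 4 with 12 months at its brightest probe, and on 0 and 1 of 4 at the other, and it was not tested.

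Uptake and activation gave 2 of 8 genes above 0 and 6 below, with a median of -0.05. None passed limma's test. CD36, a fatty acid receptor of the cell surface, averaged 0.13 ± 0.42 and ran between 0.57 on array 1 and -0.40 on array 4. SLC27A4, a transport protein with acyl-CoA synthetase activity, had -0.04, -0.56, 0.14 and -0.23 and a mean of -0.17 ± 0.30. Of the cytosolic binding proteins, FABP3 had -0.13, 0.13, 0.15 and -0.47 and a mean of -0.08 ± 0.29. FABP5 had -0.07, -0.63, 0.69 and 0.01 and a mean of 0.00 ± 0.54, so that arrays 2 and 3 cancelled each other.

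The long-chain acyl-CoA synthetases activate fatty acids for all later routes. ACSL4, which prefers arachidonate, had -0.59, 0.05, 0.59 and -0.13 and a mean of -0.02 ± 0.49. ACSL3, found on growing droplets, averaged -0.02 ± 0.35 at its brightest probe and -0.05 ± 0.26 at the dimmest, while the probe between them was above 0 on all 4 arrays at 0.52, 0.28, 0.13 and 0.31, with a mean of 0.31 ± 0.16 (limma adjusted p = 0.969). ACSL1 and ACSL5 were singled out after their values were seen, because their ratios ran together. ACSL1 had -0.44, -0.20, -0.34 and 0.46 with a mean of -0.13 ± 0.41, and ACSL5 had -0.45, -0.26, -0.27 and 0.44 with a mean of -0.13 ± 0.39. The 2 genes differed by at most 0.08 on any array. Whether their probes can detect each other's transcript was not tested.

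Of the nuclear receptors, PPARD had 0.10, -0.66, -0.17 and -0.26 on arrays 1 to 4 and a mean of -0.25 ± 0.32 (limma adjusted p = 0.969). PPARA, which drives oxidation genes in liver, was not above background on any array at either age.

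**Figure D4:**
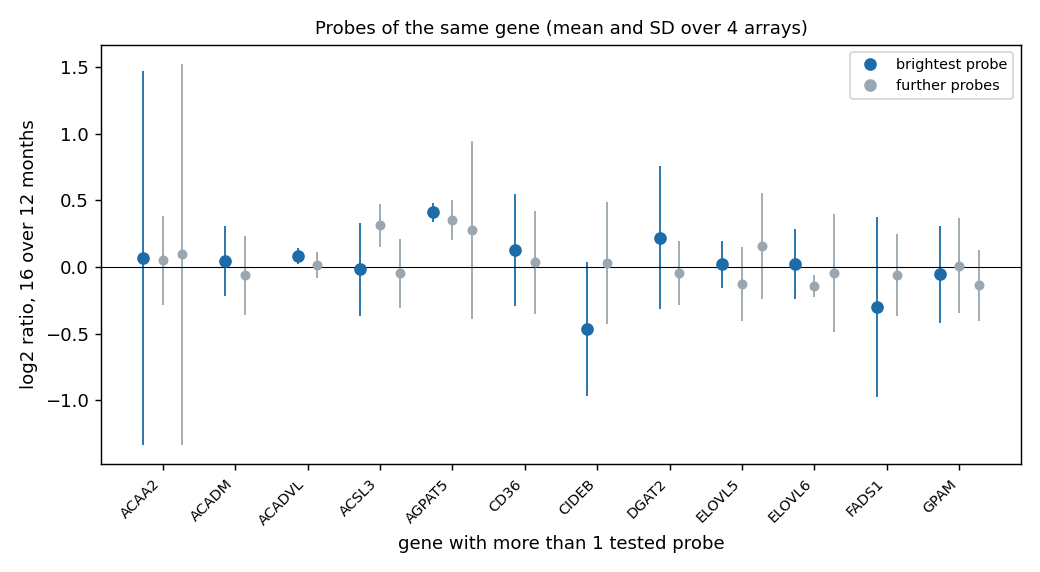
Mean log2 ratio of 16 over 12 months (y axis) for each tested probe of the 12 genes with more than 1 such probe measured on all arrays (x axis). Points are means and bars SDs over 4 arrays, with the brightest probe in blue. The probes of AGPAT5 are all above 0, and 7 genes, CIDEB and ACSL3 among them, have probes on both sides.

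For 12 members more than 1 probe was tested on all arrays. In 7 of them (ACADM, ACSL3, CIDEB, DGAT2, ELOVL5, ELOVL6 and GPAM) the probes' mean ratios had both signs, and in 5 they had 1 sign (ACAA2, ACADVL, AGPAT5, CD36 and FADS1). Over these 12 genes the median distance between a gene's highest and lowest probe was 0.16. The median size of the ratio, 0.08, was taken over the brightest probes of all 42 tested members. It is another measure on another set of genes.

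Levels also differed between arrays. For each gene the level on an array was taken as the mean of both ages. Its range over the 4 arrays was 0.07 for PPARD and 0.98 for AGPAT5. The median range was 0.57 over the 42 members and 0.43 over all genes. This range was larger than the age difference in 97.6% of the members and in 96% of all genes. The widest range was 2.60 for FADS2, with a log2 intensity of 13.12, 12.79, 11.14 and 13.68 with 16 months on arrays 1 to 4, against 13.25, 12.98, 11.15 and 13.82 with 12 months. Array 3 was the lowest at both ages, while the 2 ages differed little within each array. PLIN3 had 12.81, 12.88, 11.55 and 12.65 with 16 months, against 12.69, 13.08, 11.56 and 13.11 with 12 months, and ELOVL1 had 11.58, 12.31, 11.41 and 12.17 with 16 months, against 11.97, 12.10, 10.37 and 12.55 with 12 months. Array 3 was the lowest for both genes as well. Over the 42 members the lowest level fell on array 1 in 13, on array 2 in 10, on array 3 in 13 and on array 4 in 6. For all 11963 genes these counts were 3444, 2332, 3939 and 2248. Bull, embryos, amplification and array cannot be told apart here.

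The medians of the roles differed between arrays. On array 3 the median was above 0 in all 4 roles, at 0.19 for synthesis, 0.04 for oxidation, 0.07 for storage and 0.14 for uptake and activation. On array 4 it was -0.13 for synthesis, 0.01 for oxidation, -0.19 for storage and -0.18 for uptake and activation. The share of the 42 members above 0 was 35.7%, 40.5%, 64.3% and 38.1% on arrays 1 to 4, against 51.4%, 46.4%, 52.3% and 49.9% of all genes. These medians carry no test.

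**Figure D5:**
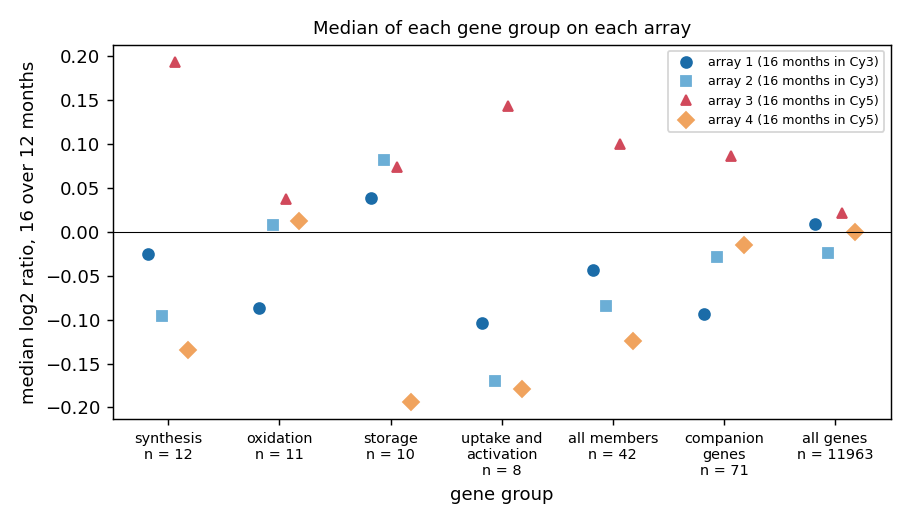
Median log2 ratio of 16 over 12 months (y axis) on each array for the genes of each role, for all 42 members, for the 71 tested companion genes and for all 11963 genes (x axis). Each symbol is an array. Array 3 is the highest for synthesis and for uptake and activation, array 4 is the lowest for storage, and the medians of all genes lie between -0.02 and 0.02.

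Further genes of the same pathways gave no call either. Of 91 such companion genes, 71 were tested, 0 passed limma's test, 32 were above 0 and 39 below, and the median was -0.02. On all 4 arrays 3 of the 71 were above 0 and 3 below, against 5.53% and 4.64% of all genes. In oxidation, ACADSB, the dehydrogenase of short branched chains, was below 0 on all 4 arrays with a mean of -0.36 ± 0.17. ACOT8, a peroxisomal thioesterase, was above 0 on all 4 with 0.37 ± 0.35, and array 3 was the highest at 0.88. In synthesis, the acetate-activating ACSS2 averaged -0.20 ± 0.21 and the dehydratase HACD2 -0.21 ± 0.52. In storage, the droplet GTPase RAB18 averaged 0.19 ± 0.19 and AGPAT1, an acyltransferase like AGPAT5, 0.18 ± 0.36. In uptake, CAV1, a caveola protein, averaged -0.32 ± 0.42 and the transporter SLC27A3 -0.20 ± 0.35. Among regulators, SREBF1, the factor that drives the synthesis genes, averaged 0.26 ± 0.45 and MLX, a partner of the carbohydrate response factor, 0.19 ± 0.35. Without array 4, HILPDA, an inhibitor of droplet lipolysis, passed limma's test at -0.70 (adjusted p = 0.028) and SREBF2, the factor of cholesterol synthesis, at -0.58 (adjusted p = 0.048), in the fit where 1.36% of all genes passed. Array 4 itself gave 0.47 for HILPDA and 0.27 for SREBF2, on the other side of 0. Over all 4 arrays HILPDA averaged -0.30 ± 0.68 and SREBF2 -0.26 ± 0.53 (limma adjusted p = 0.969 for both).

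Over the whole platform the arrays' ratios correlated weakly. Pearson's r across the 30388 tested probes measured on all arrays was 0.33 for arrays 1 and 2, -0.03 for arrays 3 and 4, and from -0.24 to -0.10 for arrays of opposite dye. These are correlations across probes, which are not independent replicates. The SD of the tested ratios was 0.31, 0.30, 0.40 and 0.29 on arrays 1 to 4. With ignored spots kept in the background fit it was 0.25 on array 3, below arrays 1 and 2. Between 63.3% and 72.4% of probes were above background in a channel. Markers of the blastocyst were detected, with 10 of the 11 trophectoderm, 9 of the 10 inner cell mass and 8 of the 9 primitive endoderm genes that had a probe above background in all 8 channel signals. Of all 15216 genes with a named probe, 8827 did so as well. The same held for 4 of 13 cumulus and granulosa cell genes (STAR, CYP19A1, INHBA and GREM1) and for 3 of 9 sperm genes. In the cumulus and granulosa list, HAS2, AMH and FOXL2 were not above background on any array. The median ratios of these lists were -0.01, -0.05, 0.09, -0.09 and -0.10, and the part of other cells in the members' ratios was not tested.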

How the data were processed

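The deposited files of each array hold spot and local background intensity in Cy3 and Cy5, not subtracted, per the file headers. RNA was amplified and dye-labelled without an enzyme, per the labels' protocols. The authors' deposited value table holds a log2 ratio of Cy5 over Cy3 for each probe and array. Its columns followed the ratios computed here with r from 0.986 to 0.994 over all probes with a value in both. The columns had medians of -0.016, -0.0019, -0.012 and -0.0063 and were used as an alternative. How the authors corrected the background stays unknown. Limma is named in the submitters' processing notes without a version.

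Median pixel intensities were background-corrected with normexp (offset 50) and normalised by loess within arrays, with control spots at weight 0. Spots marked as ignored by the scanner software (13, 10, 64 and 818 on arrays 1 to 4) were left out before the background fit. This was chosen after results of both ways had been seen, since on array 3 these spots reached a background-subtracted signal of -63856, and the fitted Cy3 background mean was 122 without them and -237 with them. With those spots kept, r with the authors' deposited table was 0.855 on array 3.

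A probe was tested when it exceeded the 95th percentile of 153 negative control spots in at least 4 of 8 channel signals. The fit used limma 3.58.1 (R 4.3.3) with coefficients for age and dye (lmFit, eBayes, two-sided, Benjamini-Hochberg over 30986 probes, threshold 0.05). The procedure was tested on simulated data. Values are means ± SD over 4 arrays, and the number of arrays limits the precision. The SD includes the dye effect, which the test removes. Levels are log2 intensities of each channel after Aquantile scaling. They set no gene's level against another's. The median half-width of a 95% confidence interval was 0.29. All arrays lay on 1 slide, and no batch of fertilisation or labelling is known.

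Of 43794 probes, 21790 carried 1 symbol. All members are named, with values on every array for those of 1 sign on all arrays and, per role, the 2 with the largest and the 2 with the smallest SD. Further values by array were chosen after they had been seen. Companion genes are the 2 of smallest p per role. The members and lists were chosen with earlier results of these data known.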

Additional observations from a re-analysis of the deposited data

Results flagged for a closer look

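In 2 of 88 sets of 4 array values (the ratio and the level of each of 42 members, and the ratio medians of 4 roles), 1 array lay far from the rest by Dixon's criterion, which chance alone meets in about 1 of 20 sets. The median ratio of the storage genes was -0.19 on array 4 and between 0.04 and 0.08 on arrays 1 to 3. The level of PLIN3, the mean log2 intensity of both ages, was 11.56 on array 3 and between 12.75 and 12.98 on the other arrays. The cause was not tested for either value.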

How the results depend on the processing

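The count of called probes and of called members was 0 under median centring, without background correction, with mean pixel intensities, without the filter on dim probes, with probes above background in all 8 channel signals, with the authors' deposited table, without the dye coefficient and with ignored spots kept. Members and companion genes also gave 0 calls when a gene's probes were averaged. At an unadjusted p below 0.05, 1277 probes were found. Leaving out 1 array at a time gave 0 to 385 called probes, 0 to 2 members and 0 to 2 companion genes, with 44 probes without array 3 and 385 without array 4. The cause was not tested. The same omissions moved the oxidation median between -0.011 and 0.10, the uptake and activation median between -0.18 and 0.12, the synthesis median between -0.10 and 0.07 and the storage median between -0.05 and 0.07, with every highest value reached without array 4. Across the processing alternatives and omitted arrays, 14 of 42 members kept the sign of their mean ratio, AGPAT5 (0.37 to 0.47) and MID1IP1 (-0.66 to -0.51) among them. The value of FADS2 moved by more than 1 SD with mean pixels, to -0.21. Signs changed for 12 members with mean pixels, 6 with median centring, 6 with ignored spots kept, 3 with averaged probes and 1 with the authors' table. Without replicates 1 to 4 they changed for 12, 4, 17 and 5. Keeping the ignored spots was added after the data were seen. The fit of ratios within arrays is already paired by array, and no replicate number is shared between arrays for a further block. Signal over background limits the probes of ACACB, ACADL, CIDEB, CIDEC, CPT1A and LPIN1, the 6 of 42 members that were not above background in all 8 channel signals.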
